A study of Rangifer tarandus with 8 samples.

Results

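The 951 microRNA genes of the cattle annotation supplied with a reindeer skin study were mapped by host gene, strand and cluster. They were taken as every gene record with the biotype miRNA, out of 27607 gene records in all. Each gene was placed in 1 of 4 classes, by whether it lay wholly inside a protein coding gene on the same strand, inside one on the opposite strand, inside a long noncoding RNA (lncRNA) gene, or in none of these. The last class is called intergenic here, although 10 of its members overlap a small RNA gene or pseudogene. A coding or lncRNA gene is overlapped in part by 4 members of this class. A gene was called clustered when another microRNA gene on its strand lay within 10 kb of it. The label was checked against the records: 840 of the genes carried a cattle microRNA name, and 111 had an Ensembl identifier alone. No value of any sample entered this description.

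The study made single-cell ATAC-seq libraries, which map open chromatin cell by cell, from adult reindeer (Rangifer tarandus). Its 8 libraries fall into 7 groups: velvet (the skin of the growing antler) and back skin, each at day 0 without a wound and at day 7 after a 12 mm full-thickness excision, and velvet grafted to the back, taken 6 weeks (2 animals), 3 months or 6 months later. All animals were reindeer with no genotype or drug in the labels, the epidermis was removed and dead cells were sorted out before the libraries were made, and 6 of the groups hold 1 library. Fragments were aligned to the cattle (Bos taurus) assembly ARS-UCD1.2, so positions below are cattle positions, and whether each gene lies at the same place in reindeer was not tested. The labels give 1006 to 20002 cells per library, and accessibility values were not analysed here.

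MicroRNAs are short RNAs that guide silencing proteins to messenger RNAs, usually at the bases that pair with the seed near the microRNA's 5′ end. They are cut from a hairpin in a longer primary transcript, first by DROSHA with DGCR8 in the nucleus and then by DICER in the cytoplasm. Where the hairpin lies in an intron of another gene on the same strand, both can come from 1 transcript and 1 promoter, whereas neighbouring hairpins in a cluster can be cut from a shared primary transcript. In a chromatin assay this matters because fragments over a host promoter or gene body cannot be assigned to the host or to the microRNA gene by position alone. The records used here cover the hairpin and not the primary transcript, with lengths from 46 to 149 bases and a median of 77.

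Most microRNA genes lay either inside a coding gene on its own strand or between genes. The same-strand coding class held 428 genes (45.0%, exact 95% Clopper-Pearson interval 41.8 to 48.2%) and the intergenic class 399 (42.0%, 38.8 to 45.2%). The opposite strand of a coding gene held 100 genes (10.5%, 8.64 to 12.6%) and lncRNA genes held 24 (2.52%, 1.62 to 3.73%), of which 22 lay on the lncRNA's own strand. These intervals treat the genes as a draw from a wider set, which clustered genes are not, and no test was made. Among the 428 same-strand genes, 5 also lay in a coding gene on the other strand.

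Within coding genes the microRNA genes were found mainly on the host's strand. Of 528 microRNA genes inside a coding gene, 428 (81.1%, 77.5 to 84.3%) shared its strand. The corresponding share was 80.2% of 409 among small nucleolar RNA (snoRNA) genes, many of which are also processed from introns. Among small nuclear RNA (snRNA) genes it was 46.0% of 439 (41.3 to 50.8%), among ribosomal RNA genes 48.3% of 116 (38.9 to 57.7%), among pseudogenes 57.9% of 95 (47.3 to 68.0%) and among genes of miscellaneous RNA 65.4% of 104 (55.4 to 74.4%). For scale, coding gene bodies covered 18.2% of the length of a given strand and 36.0% of the chromosomes when both strands were merged. The same-strand share of all microRNA genes was 2.48 times this strand coverage, while the opposite-strand share of 10.5% lay below the 17.8% of the length that only the other strand covers. LncRNA bodies covered 1.25% of the length and held 2.52% of the microRNA genes.

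**Figure D1:**
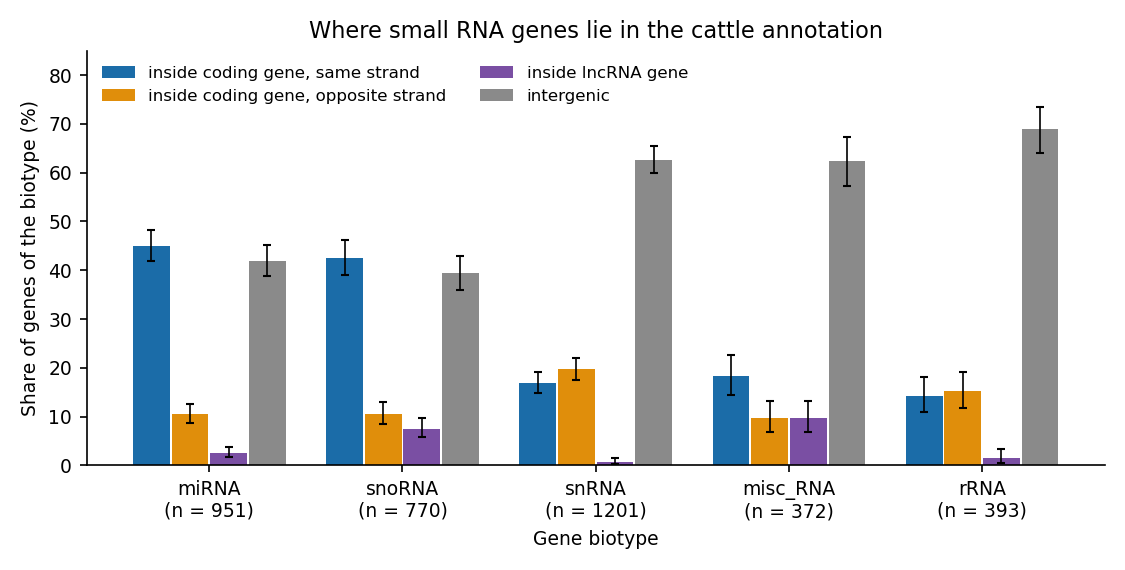
Share of genes of 5 small RNA biotypes (x axis, with the number of genes) in each class of position (y axis, percent of the biotype). Bars are shares and lines are exact 95% Clopper-Pearson intervals; microRNA and snoRNA genes have their tallest bar at the same strand of a coding gene (45.0% and 42.6%), and snRNA, miscellaneous and ribosomal RNA genes at intergenic positions (62.7%, 62.4% and 69.0%).

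A gene body extended by 2 kb upstream is the interval over which Signac, the package named in the series text, by default adds up fragments as a gene's activity. Here the window was drawn for every coding gene whatever its length, and no other setting of the package, such as a limit on gene length, was applied. With such windows 566 microRNA genes (59.5%, 56.3 to 62.7%) lay inside that of at least 1 coding gene. A limit that leaves out the longest genes would lower this count. Of these, 38 came from the intergenic or lncRNA class and lay in the 2 kb upstream part. Fewer genes lay close to a promoter: 57 of the 428 same-strand genes (13.3%, 10.2 to 16.9%) were within 2 kb of an annotated start site of the host. The same held for 17 of the 100 opposite-strand genes (17.0%, 10.2 to 25.8%). Of the intergenic genes, 32 lay upstream of their nearest coding gene and within 2 kb of it.

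Same-strand hosts numbered 382, or 1.75% of the 21861 coding genes, and they were long. Their median length was 62.7 kb (quartiles 22.8 and 181 kb) against 14.0 kb for all coding genes, a ratio of 4.46. The 86 opposite-strand hosts had a median of 84.8 kb. Among coding genes of up to 10 kb, 0.459% held a same-strand microRNA gene, and the share was 10.3% among those over 300 kb. Per length of gene body the order was the other way, with 1.33 same-strand microRNA genes per Mb in genes of up to 10 kb and 0.234 per Mb in genes over 300 kb. Long genes were thus hosts more often, and each Mb of them held fewer microRNA genes. The longest host was GPC5, a cell surface proteoglycan gene of 1033 kb on chromosome 12, with bta-mir-2285cw-1 in intron 7. The shortest was an unnamed coding gene of 1.915 kb on chromosome 4, with an unnamed microRNA gene in its 5′ untranslated region.

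**Figure D2:**
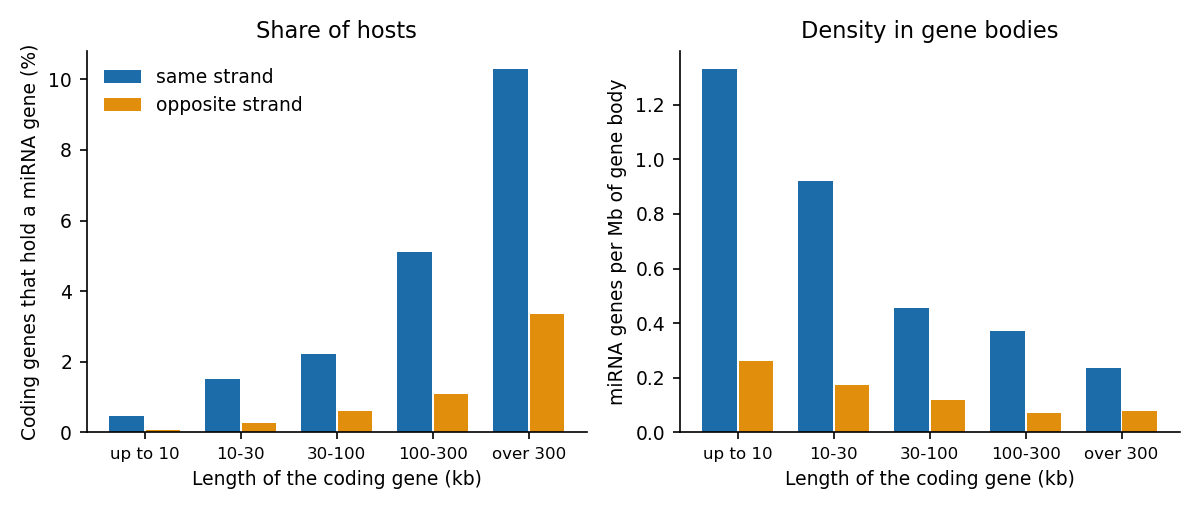
Left, share of coding genes in each class of length that hold a microRNA gene (percent); right, microRNA genes per Mb of gene body in the same classes, for the same and the opposite strand. From the shortest to the longest class the same-strand share of hosts goes from 0.459% to 10.3%, and the same-strand density from 1.33 to 0.234 per Mb.

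Of the same-strand microRNA genes, 370 (86.4%, 82.8 to 89.5%) lay within an intron of the host transcript with the longest coding sequence. The introns that held them were long, with a median of 6.55 kb (quartiles 2.05 and 31.3 kb), against 1.43 kb over all 6593 introns of these hosts. The latter median counts each intron once whatever its length, and longer introns offer more room. Whether microRNA genes favour long introns per length was therefore not tested. The first intron held 78 of the 370 (21.1%, 17.0 to 25.6%), and first introns made up 21.7% of the hosts' intron length. For the opposite strand the first intron held 9 of 81 (11.1%, 5.21 to 20.05%), where first introns made up 19.5% of the length. Same-strand genes lay at all depths of the host, with a median of 53.4% of the way from its start. Their median distance to the nearest host exon was 1142 bases. At the short end, 6 microRNA genes filled 50% or more of their intron, and their hosts are named after these values were seen: bta-mir-1224 spanned all 86 bases of intron 19 of VWA5B2, and the others lay in PLEC, RAB4B, KMT2D, ELAC2 and TMC6. Hairpins that coincide with a short intron are known as mirtrons, whose ends are made by splicing in place of DROSHA. Whether these are processed so was not tested.

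An exon of the host was touched by 52 same-strand microRNA genes (12.1%, 9.21 to 15.6%), and 34 of these overlapped coding sequence. For 28 the whole hairpin lay within 1 exon, and the other 24 crossed an exon edge. None of the 52 was on the lists of well known microRNAs described below. A few were singled out after their values were seen. DGCR8, which encodes the partner of DROSHA, held 2 unnamed microRNA genes in its first bases, 0.059 and 0.38 kb from its start. The former overlapped the 5′ untranslated region, and the latter overlapped coding sequence. In FBN1, the gene of the microfibril protein fibrillin-1, bta-mir-10168 overlapped coding sequence (chromosome 10, 61825309 to 61825391). In ABCF1, bta-mir-877 crossed a coding exon edge (chromosome 23, 28399539 to 28399640), and bta-mir-3064 did so in the RNA helicase gene DDX5 (chromosome 19, 48680498 to 48680581). Introns of other hosts picked out in the same way held bta-mir-2917 (COL5A2, a fibrillar collagen gene), an unnamed microRNA gene (COL27A1, also a collagen gene) and bta-mir-28 (LPP, an adhesion protein gene).

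A single microRNA gene was held by 350 of the 382 same-strand hosts, 2 by 21 hosts and 3 or more by 11. The 32 hosts with 2 or more held 78 microRNA genes together, and in 15 of these hosts all were placed in the same intron. Where hosts overlap each other the intron was read in the shortest host alone, so such hosts may be miscounted here. CLCN5, a chloride transporter gene on the X chromosome, held the most. Its second intron of 128 kb contained 8 microRNA genes, among them bta-mir-532, bta-mir-362, bta-mir-500 and bta-mir-660. HTT, the huntingtin gene, held 4: bta-mir-2450a, bta-mir-2450b and bta-mir-2450d lay together in intron 21, and bta-mir-2451 lay apart in intron 65.

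Hosts with 3 microRNA genes included well known pairs of host and cluster. MCM7, a subunit gene of the replicative helicase, held bta-mir-106b, bta-mir-93 and an unnamed gene in intron 13, which is 0.734 kb long. AOPEP, an aminopeptidase gene, held bta-mir-2475, bta-mir-10174 and bta-mir-27b in its last intron, with an unnamed microRNA gene on the opposite strand of the same intron. CDC20B held bta-mir-449a, bta-mir-449b and bta-mir-449c in intron 2, from 0.816 kb after its start. TTLL10 held bta-mir-200a, bta-mir-429 and an unnamed gene in its first intron. The receptor subunit genes GABRE and GABRA3, both of the GABA receptor family and both on the X chromosome, held 3 each. GABRE had bta-mir-224, bta-mir-452 and bta-mir-3431 in intron 6, and GABRA3 had bta-mir-105a, bta-mir-105b and bta-mir-767 in intron 1. In SHB, an adaptor protein gene, bta-mir-2472 lay in intron 2 and bta-mir-2473 and bta-mir-2474 in intron 1, too far apart to form a cluster.

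Among hosts with 2, the chromosome condensation gene SMC4 held bta-mir-15b and bta-mir-16b in intron 5, and HUWE1, a ubiquitin ligase gene, held bta-mir-98 and bta-let-7f-2 in intron 60. SKA2 held bta-mir-301a and bta-mir-454, CALCR held bta-mir-489 and bta-mir-653, and NFYC held bta-mir-30c with an unnamed gene. SLIT3, a guidance ligand gene, held bta-mir-2285ct and an unnamed gene. The remaining named hosts of 2 were MYO9A, ITSN1, AP3B1, HSPA12A, CTDSPL, C25H7orf50, TMEM245, COG3, OCLN, HOATZ, PDCD4, DGCR8, ABCF1 and PGP. On chromosome 26 a further 3 hosts were unnamed coding genes that overlap each other and share the bta-mir-10225 genes, so they are not separate cases. A set of 6 coding genes held microRNA genes on both strands: AOPEP, CALCR, KCNMA1, SKI, TIAM1 and ZNF521.

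Of the 86 opposite-strand hosts 9 held 2 or more microRNA genes. They were led by RTL1, which held 5 genes, and LARP7, which held 4; both are described with the clusters below. DNM3, a dynamin gene, held bta-mir-199a-1 and bta-mir-214 in intron 15. Its relative DNM1 held bta-mir-199b, also in intron 15, with an unnamed gene. NR6A1, a nuclear receptor gene, held bta-mir-181a-2 and bta-mir-181b-2 in intron 2, and MIB1 held bta-mir-133a-2 with an unnamed gene in intron 12. The gene of the immune microRNA bta-mir-155 lay within the annotated body of MRPL39, 25.471 kb from its start, on the opposite strand. All 21 lncRNA hosts were unnamed. They included the host of bta-mir-205, an epithelial microRNA, on chromosome 16, and that of the muscle microRNA bta-mir-206, on chromosome 23.

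Clusters held 201 of the microRNA genes (21.1%, 18.6 to 23.9%), in 62 clusters, and 750 stood alone. Pairs made up 43 of the clusters, 11 had 3 members and 7 had 5 or more. Neighbours within a cluster lay close together: the median gap was 433 bases, and 92 of 139 gaps (66.2%, 57.7 to 74.0%) were under 1 kb. Few pairs fell near the limit. The widest gap counted as inside was 9.547 kb, between bta-mir-454 and bta-mir-301a in SKA2. The narrowest left outside was 10.145 kb, between bta-mir-133a-1 and an unnamed gene on chromosome 13. Of the 886 neighbour pairs, 10 lay from 5 to 10 kb apart and 12 from 10 to 20 kb, while 557 were over 1 Mb apart.

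**Figure D3:**
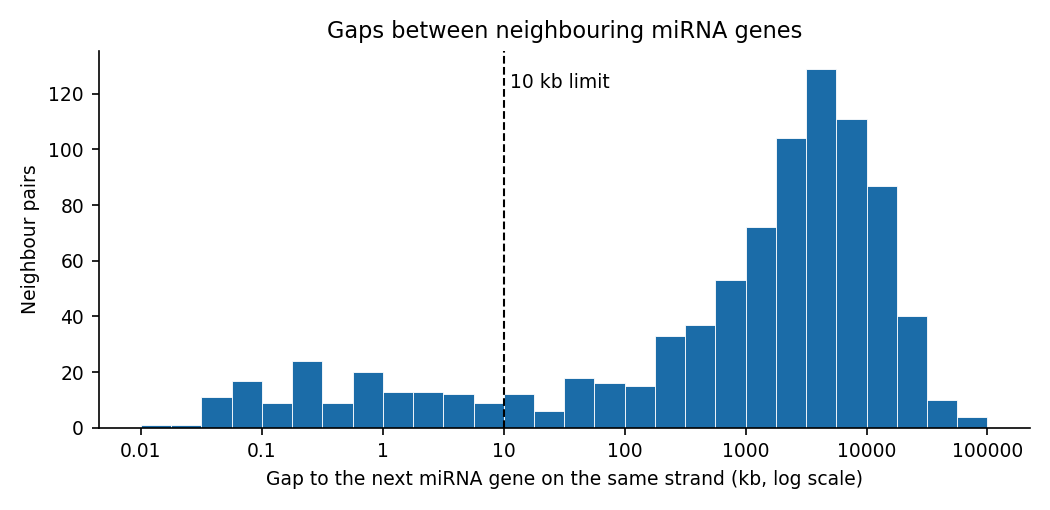
Gaps between neighbouring microRNA genes on the same strand (x axis, kb, log scale) with the number of neighbour pairs in each bin (y axis); the dashed line is the 10 kb limit. Of 886 pairs, 139 lie left of the line, and the tall group on the right holds the 557 pairs more than 1 Mb apart.

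Clustered genes lay between coding genes more often than lone ones did. Of the clustered genes 60.7% (53.6 to 67.5%) were intergenic and 26.9% (20.9 to 33.6%) were in a same-strand coding gene. Of the lone genes 36.9% (33.5 to 40.5%) were intergenic and 49.9% (46.2 to 53.5%) were in a same-strand coding gene. Seen by class, 30.6% of intergenic genes were clustered, or 22.8% when the largest cluster is left out, against 12.6% of same-strand coding genes. All members were intergenic in 33 of the 62 clusters, 19 clusters lay wholly inside 1 same-strand coding gene, and 1 cluster had members of more than 1 class. In 11 of the 62 clusters all members shared the number in their name, and in 16 at least 2 members did. These counts are minimums, since 45 of the clustered genes have no name and so no number. In a split made after the data were seen, 351 of the 467 pairs of named genes within a cluster came from the largest cluster, and 5 of these (1.42%) shared the number. In the other clusters 34 of 116 pairs (29.3%) did so. Of the pairs of named genes not in the same cluster 3.13% shared the number, nearly all of them mir-2284 or mir-2285 genes, and 0.0625% did so without those genes.

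The largest cluster held 40 genes, 19.9% of all clustered genes, on the plus strand of chromosome 21 from 65912508 to 65955413 (42.9 kb). It ran from bta-mir-379 to bta-mir-656, with 27 named members that include bta-mir-376c, bta-mir-495, bta-mir-654 and bta-mir-410. All 40 were intergenic, with a median gap of 653 bases and a largest gap of 3374. The same region held the third largest cluster, 130 kb upstream, with 7 genes that include bta-mir-431, bta-mir-433, bta-mir-432 and bta-mir-136. Of these, 5 lay on the strand opposite to RTL1 (65778461 to 65782456), a gene derived from a retrotransposon, and all 5 overlapped its annotated coding sequence. The 2 clusters together held 47 genes between the growth regulator gene DLK1, 277.679 kb before bta-mir-379, and DIO3, an enzyme gene of thyroid hormone breakdown, 539 kb after bta-mir-656. This is the imprinted DLK1-DIO3 domain, where in placental mammals the noncoding RNAs are known to be made from the maternal chromosome. Imprinting was not measured here.

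The X chromosome held 4 of the 10 largest clusters. After the CLCN5 cluster of 8 genes came 2 clusters of 6, both on the minus strand and 260 kb apart. One spanned 6.635 kb and held bta-mir-424, bta-mir-503, bta-mir-450a-1, bta-mir-450a-2, bta-mir-450b and an unnamed gene. The other spanned 0.922 kb and held bta-mir-106a, bta-mir-18b, bta-mir-20b, bta-mir-19b-2, bta-mir-92a-2 and an unnamed gene. Its relative on chromosome 12 spanned 0.793 kb (65689417 to 65690209), with bta-mir-17, bta-mir-19a and 4 unnamed genes, and gaps of 76 bases or less. This is the miR-17-92 cluster, known for its role in cell growth. GPC5 was the next coding gene after the chromosome 12 cluster, at 65.1 kb. The coding gene nearest to the X cluster of 0.922 kb was CCDC160, at 44.3 kb, and GPC3, a relative of GPC5, lay 146 kb away on the other side. GABRE completed the X chromosome set.

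Other leading clusters were smaller. On chromosome 26, 5 genes named bta-mir-10225 stood up to 9306 bases apart over 26.0 kb, all inside the unnamed coding gene ENSBTAG00000050618, and 4 of them shared the name bta-mir-10225a. On chromosome 6, bta-mir-302a, bta-mir-302b, bta-mir-302c and bta-mir-367, known from pluripotent cells, lay within 0.925 kb on the strand opposite to intron 7 of LARP7. On chromosome 4, bta-mir-96 and bta-mir-182, known from sensory cells, and an unnamed gene spanned 4.825 kb between coding genes. The 10 largest clusters held 88 genes, or 43.8% of those clustered.

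**Figure D4:**
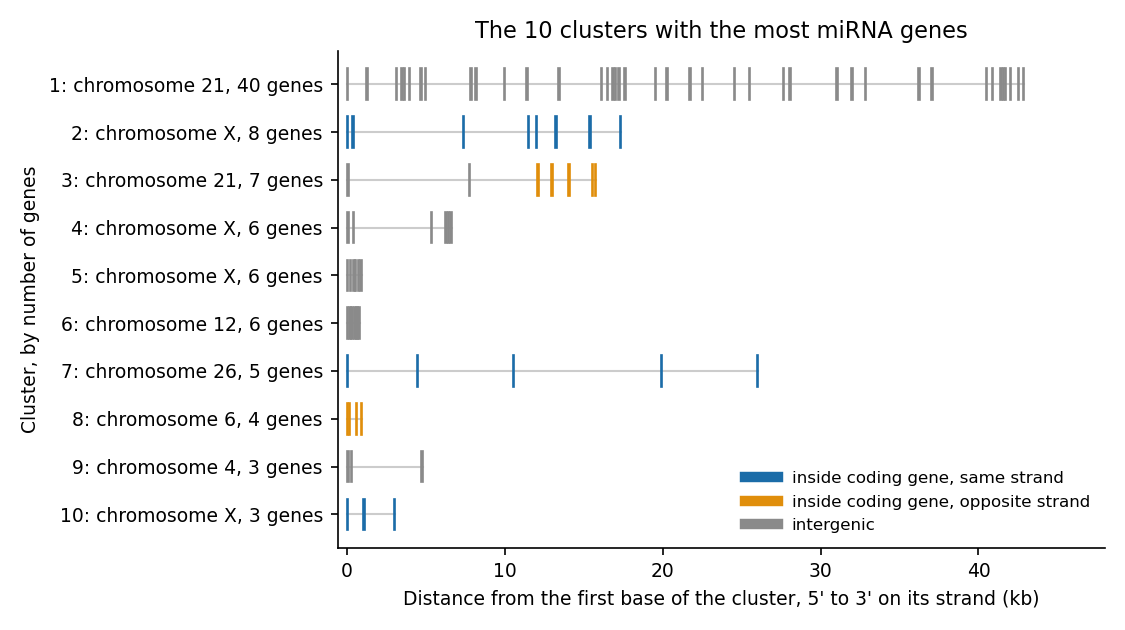
The 10 clusters with the most microRNA genes (rows), drawn to scale from their first base in the direction of transcription (x axis, kb). Each tick is 1 gene, coloured by class; the 40 genes of the top row are all intergenic over 42.9 kb, and rows 5 and 6 hold 6 genes each in under 1 kb.

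MicroRNA genes were unevenly spread over the chromosomes. The 29 autosomes and the X chromosome carried 943 genes, with a median of 29 and a range from 10 on chromosome 28 to 74 on chromosome 21, and 8 lay on unplaced scaffolds. Chromosome 21 had 1.06 genes per Mb, and 0.487 without its largest cluster. Chromosome 19 had 0.914 per Mb, or 0.883 without its largest cluster. The median chromosome had 0.328.

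Grouping by the number in the name showed 1 dominant set, which was singled out after the names had been counted. Names with mir-2284 or mir-2285, usually treated as 1 large family of ruminants, belonged to 179 genes (18.8% of all, 16.4 to 21.5%). These genes lay on 31 chromosomes or scaffolds, and none of the 179 was clustered. The closest pair on 1 strand was 11.704 kb apart, just beyond the 10 kb limit. Of the other 661 named genes, 23.6% were clustered. Lack of clustering was not particular to this family, since none of the 8 mir-584, 5 mir-2345 and 4 mir-378 genes was clustered either. The remaining numbers that occurred 4 times or more, mir-181, mir-10225, mir-29, mir-30, let-7 and mir-449, all had clustered members. Inside coding genes, 68 of the 102 family members (66.7%, 56.6 to 75.7%) lay on the host's strand, against 315 of 375 other named genes (84.0%, 79.9 to 87.6%). Their hosts had a median length of 177 kb against 55.0 kb, and 2 of the 102 touched a host exon against 55 of the 375. These differences were not tested, and genes of a family share ancestry, so they are not independent. RUNX1, a transcription factor gene, held bta-mir-2285a in intron 2, and this host was picked out after its values were seen.

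**Figure D5:**
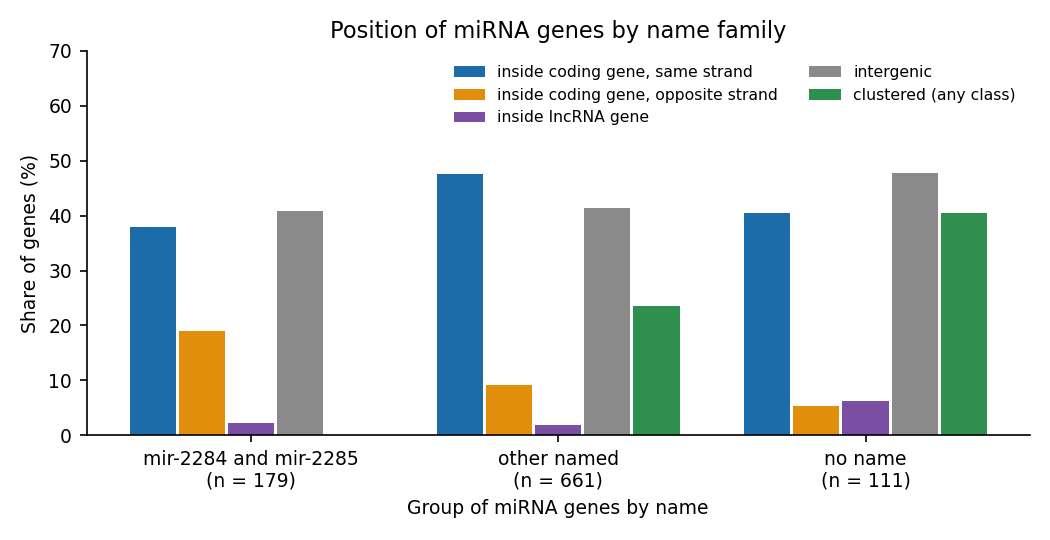
Share of microRNA genes in each class, and share clustered (y axis, percent), for names with mir-2284 or mir-2285, other named genes and unnamed genes (x axis, with the number of genes). The family has no clustered bar, since 0 of its 179 genes were clustered, and its opposite-strand bar stands at 18.99% against 9.08% for other named genes.

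Over all named genes, 503 of 564 numbers in names occurred once. The numbers that occurred 4 times or more were 11, with mir-2284 and mir-2285 among them. A full name was shared by more than 1 record in 11 cases, which covered 27 records: bta-mir-2345, singled out for this count, named 5 genes and bta-mir-10225a named 4. Where copies share a sequence, short fragments or reads may not be placed uniquely among them. An overlap with a snoRNA or small Cajal body RNA gene was found for 22 microRNA genes, all on the same strand, among them bta-mir-664a, bta-mir-664b and bta-mir-1291, which were picked out after the overlaps were seen. Some hairpins of this kind are known to be cut from snoRNAs.

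Lists of 97 names known from skin, wound, vessel, immune, skeletal and other biology were then looked up. Of these, 73 matched 83 genes, and the other 24, such as MIR21, MIR203 and MIR140, had no match by name and were not analysed here. Of the 83 genes, 47 (56.6%) were intergenic, 26 (31.3%) lay in a same-strand coding gene, 8 in an opposite-strand one and 2 in a lncRNA gene. The other 868 genes include all 111 unnamed ones, some of which may be genes of the unmatched names. Of the 757 named genes on no list, 39.5% were intergenic and 47.2% were in a same-strand coding gene. Clustered genes made up 50.6% (39.4 to 61.8%) of the list genes, 15.1% of the named genes on no list and 40.5% of the unnamed genes. The split by name was added after these data were seen. These lists hold families and clusters by choice, so the shares describe the lists.

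All 13 matched genes of the scar and fibroblast list were clustered, and 1 of them lay in a same-strand coding gene. That gene was bta-mir-27b in AOPEP. The bta-mir-143 and bta-mir-145 genes, known from smooth muscle and myofibroblasts, formed a pair on chromosome 7, 34.5 and 35.9 kb from IL17B. The bta-mir-29 genes, known to target collagen messages, formed pairs on chromosomes 16 and 4. A record named bta-mir-29b-2 appeared in both of the chromosome 16 pairs, at 75577042 and 75660370. The genes bta-mir-199a-1, bta-mir-214, bta-mir-199b and bta-mir-433 lay opposite to a coding gene. On this list 5 of the 13 genes were inside a coding window.

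In the skin epithelium list the miR-200 family was divided by position. The genes bta-mir-200a and bta-mir-429 lay in TTLL10, while bta-mir-200c and bta-mir-141 were an intergenic pair on chromosome 5, 1.572 and 1.141 kb from PHB2. An unnamed coding gene on chromosome 15 held bta-mir-125b-1, whereas bta-mir-125b-2 was intergenic on chromosome 1. The genes bta-mir-31, bta-mir-184 and bta-mir-34a stood alone between genes. The nearest coding gene to bta-mir-31 was the interferon gene IFNE at 28.4 kb.

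Among vessel genes, bta-mir-126 lay in intron 7 of EGFL7, an endothelial secreted factor gene of 9.17 kb on chromosome 11, and the other 6 were intergenic. The bta-mir-221 and bta-mir-222 pair on the X chromosome was far from coding genes, with DIPK2B nearest to bta-mir-221 at 430.024 kb. Of 12 immune and inflammatory genes 8 were intergenic, and several of those lay close to a coding gene. The gene of bta-mir-223 was 2.658 kb from VSIG4, and bta-mir-142 was 3.471 kb from TSPOAP1. By contrast, bta-mir-146a lay 58.0 kb from PTTG1. The single same-strand coding gene of this list was bta-mir-342, in intron 3 of EVL.

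The 4 matched cartilage and bone genes were unclustered, and 3 lay in a same-strand coding gene. TRPM3 held bta-mir-204 in intron 7, SLIT2 held bta-mir-218-1 in intron 16, and MEST, an imprinted gene, held bta-mir-335 in intron 2. The related bta-mir-211 was intergenic. For growth and the cell cycle all 13 matched genes were clustered, with 6 in the same-strand hosts MCM7, SMC4 and HUWE1 and 7 intergenic.

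Lipid metabolism was the list with the largest share in same-strand hosts, at 6 of 7 genes. The sterol regulator genes SREBF2 and SREBF1 held bta-mir-33a and bta-mir-33b in introns 16 and 18. PANK3 and PANK1, which encode the first enzyme of coenzyme A synthesis, held bta-mir-103-1 and bta-mir-107, both in intron 5. The phosphatase genes CTDSPL and CTDSP2 held bta-mir-26a-1 and bta-mir-26a-2 in introns 4 and 5. In each of these 3 cases related microRNA genes lay in related hosts.

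The 4 genes of the HOX-linked list were all intergenic and lay within the HOX clusters, whose genes set position along the body axis. They stood on the strand of the nearest HOX gene: bta-mir-10b was 0.577 kb from HOXD4, bta-mir-196b 1.067 kb from HOXA10, bta-mir-10a 1.432 kb from HOXB4 and bta-mir-196a-1 5.975 kb from HOXB9. Of the 4, bta-mir-10a and bta-mir-10b fell into the 2 kb upstream part of a coding window. The list does not hold every microRNA gene at HOX genes. Off the list, an unnamed microRNA gene lay in an intron of HOXC5 on its strand. Another unnamed one was intergenic, 1.459 kb from HOXC10, and bta-mir-2886 was intergenic, 4.706 kb from HOXB5.

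The muscle list had 1 matched gene in each of the 4 classes, while the nerve and pigment list had same-strand coding and intergenic genes alone. MYH7B, a myosin gene, held bta-mir-499 in intron 17, while bta-mir-133a-1 was intergenic. Of 9 nerve and pigment genes 4 had same-strand hosts: ARPP21 held bta-mir-128-2, AATK held bta-mir-338, and the paralogs PTPRN and PTPRN2 held bta-mir-153-1 and bta-mir-153-2 in introns 19 and 18.

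Intergenic microRNA genes ranged from partly overlapping a coding gene to far from one. The median distance to the nearest coding gene was 30.0 kb (quartiles 4.18 and 120 kb), and the farthest was 1079 kb away. Of the 399, 66 (16.5%, 13.0 to 20.6%) were within 2 kb of a coding gene and 111 were over 100 kb away. The nearest coding gene was on the same strand for 188 of the 399. The largest cluster weighs on both counts. For all 40 of its genes the nearest coding gene was RTL1, on the opposite strand and 130 to 173 kb away.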

How the data were processed

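The data used here are the gene annotation that the authors deposited, for the cattle assembly ARS-UCD1.2 per the file headers; its values are first and last bases of features, counted from 1, and belong to no sample. Cell Ranger ATAC and Cell Ranger appear in the submitters' processing notes, with no version given in the sources used here. No depth per cell is known, and no comparison between the 7 groups of libraries was made.

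Gene records were read with Python 3.11.15, taking the first name field of each. A microRNA gene was inside another gene when all its bases lay within the gene's body. Classes were given in the order same-strand coding, opposite-strand coding, lncRNA, intergenic, and where several hosts held a gene the shortest was described. Clusters joined neighbours on 1 strand with a gap of up to 10 kb. Introns are those of the host transcript with the longest coding sequence. Strand coverage runs to the last annotated base of each placed chromosome. Intervals are exact 95% Clopper-Pearson intervals (SciPy 1.17.1) and cover no replicate error. The code was tested on made-up genes with known classes.

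Genes were named by a rule: the 10 largest clusters (ties by span), hosts with 2 or more microRNA genes, the longest and shortest host, pairs on either side of the limit, and members of 10 lists written from general knowledge. Any other gene named was chosen after its values were seen. The members and lists were chosen with earlier results of these data known. Alternatives tried are given with their effect in the closing section.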

Additional observations from a re-analysis of the deposited data

How the results depend on the processing

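Of 55 alternative settings over 10 counts, 54 gave a value within 1.5 times the reported one. The exception was the number of same-strand microRNA genes in a host exon: 52 overlapped an exon, and 28 lay whole within 1 exon. Some settings could move a count little or not at all, so the tally is no measure of stability. No gene lay inside both a coding and a lncRNA gene, so the order of these classes had no effect. Leaving out unplaced scaffolds removed 8 genes. With limits of 3 and 50 kb, 172 and 257 genes were clustered, in 55 and 85 clusters, and the largest cluster held 30 genes at 3 kb and 40 at 5, 20 and 50 kb. The same-strand share inside coding genes stayed between 79.7% with bodies extended 2 kb upstream and 81.9% with each cluster counted once. Named microRNA genes alone gave 145 clustered genes and 27 in the largest cluster. No paired analysis was possible because no value belongs to a sample. The annotation is that of cattle, so what it lacks or places otherwise in reindeer limits each count.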
